A study of Mus musculus with 3 samples.

Results

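The mitochondrial ribosomal protein genes are the protein-coding genes of mouse chromosomes 1 to 19 whose symbols are Mrpl or Mrps followed by a number. The gene table held 78 of them among 20560 protein-coding genes, 49 named for the large subunit (Mrpl) and 29 for the small subunit (Mrps), on 17 chromosomes. No measured value entered this rule, though the members were chosen with earlier results of these data known. Nucleosomes were mapped in erythroblasts of mouse fetal liver that lacked Ter119, a surface marker of later red cell precursors, at the start of culture. Cells came from 6 fetuses and grew in IMDM with 10% fetal bovine serum, erythropoietin at 2 U/ml, 1% BSA and insulin. Chromatin was taken at culture start (day 0) and on 2 later days, days 1 and 2, with 1 library for each. The series follows nucleosomes through the last steps of red cell formation, and no source used here says if 1 culture gave all 3 libraries. No difference between days has a replicate check, so each value describes its library. The libraries hold DNA of all cells together, so a different mix of cells and a different chromatin within the cells cannot be told apart, and nucleosome positions give no expression level with which to check the labelled cell type.

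The mitochondrial ribosome is a machine of RNA encoded in mitochondrial DNA and of proteins encoded in the nucleus, made in the cytoplasm and imported. It translates the few proteins of the respiratory chain that mitochondrial DNA encodes. Maturing erythroblasts rely on mitochondria for heme and for iron-sulfur clusters, and red cells lose these organelles at the end of their formation. At the start sites of many active genes a stretch of DNA is free of nucleosomes, and the nucleosomes that follow it within the gene are placed at regular distances. Micrococcal nuclease digests the DNA between nucleosomes, so that the protected fragments mark where they lay.

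The starts of Mrpl and Mrps genes were poor in listed nucleosomes on all days. In the stretch from 200 bp before to 50 bp after the start, their position density was 0.428, 0.454 and 0.486 of the flanking level on days 0, 1 and 2. The same value over all genes was 0.786, 0.938 and 0.893. Of the 69 members with a known start, 30 (43.5%) had no position centre in that stretch on any day, against 26.6% of all genes. The 30 included genes for the large subunit proteins Mrpl3 and Mrpl11 and for Mrps12, a protein of the decoding site. Of the 30, 13 had a start on the other strand that points away and lies within 1000 bp. Among the 46 members without such a partner it was 17 (36.96%, with a counting interval of 23.21 to 52.45). That interval held the share of all genes, so the excess was not resolved in these 46. The signal around the gene ends was highest on day 1 for most members, as it was for most genes, and the change between days of the members as a group was close to that of all genes.

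Upstream sequences are printed here for 6 genes, chosen from the named genes because they hold a searched motif or lie between paired starts, and because their stretch before the start lies outside other genes. They come from the RefSeq promoter table of GRCm38.p6 (mm10) and are read 5′ to 3′ on the strand of the gene, ending at the last base before the start. Capitals mark matches to CGCATGCG (NRF1, nuclear respiratory factor 1, which reads the same on both strands), CCGGAAGT (ETS factors such as GABPA) or CCAATCA, the form of the CAAT box used here. Mrpl17 encodes a large subunit protein, and its stretch is chr7:105811088-105811337 on the minus strand. Mrpl10 encodes the protein that anchors the stalk of the large subunit, and its stretch, up to the neighbouring gene, is chr11:97041370-97041581 on the plus strand. Mrpl3 encodes a protein near the site of peptide bond formation, and its stretch is chr9:105053018-105053267 on the plus strand. Mrps22 encodes a small subunit protein with no bacterial counterpart, and its stretch is chr9:98601680-98601929 on the minus strand. Mrps12 has the stretch chr7:28741822-28741956 on the minus strand, up to the gene on its other side. Mrpl46 and Mrps11 lie head to head, and the bases between the 2 genes are chr7:78783090-78783130, printed on the minus strand, that of Mrpl46.
Mrpl17: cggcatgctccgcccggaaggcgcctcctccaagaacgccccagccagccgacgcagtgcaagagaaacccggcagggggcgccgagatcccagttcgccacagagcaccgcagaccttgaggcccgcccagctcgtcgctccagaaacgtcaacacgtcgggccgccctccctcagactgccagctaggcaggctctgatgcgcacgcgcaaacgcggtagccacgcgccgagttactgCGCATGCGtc
Mrpl10: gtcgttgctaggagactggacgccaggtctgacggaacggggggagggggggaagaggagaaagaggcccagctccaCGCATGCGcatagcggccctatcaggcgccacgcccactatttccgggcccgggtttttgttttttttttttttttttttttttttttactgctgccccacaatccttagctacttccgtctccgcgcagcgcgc
Mrpl3: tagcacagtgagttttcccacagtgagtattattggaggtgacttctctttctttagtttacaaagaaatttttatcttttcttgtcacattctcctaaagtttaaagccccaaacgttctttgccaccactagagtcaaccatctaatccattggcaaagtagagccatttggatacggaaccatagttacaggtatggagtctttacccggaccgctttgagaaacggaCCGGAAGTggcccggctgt
Mrps22: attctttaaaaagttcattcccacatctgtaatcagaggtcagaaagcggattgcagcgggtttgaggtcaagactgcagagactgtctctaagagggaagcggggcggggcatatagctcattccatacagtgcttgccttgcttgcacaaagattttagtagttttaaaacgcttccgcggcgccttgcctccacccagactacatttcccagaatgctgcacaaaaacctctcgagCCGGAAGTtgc
Mrps12: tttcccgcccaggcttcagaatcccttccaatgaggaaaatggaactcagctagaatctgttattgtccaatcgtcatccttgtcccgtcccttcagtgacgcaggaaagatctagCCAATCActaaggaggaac
Mrpl46: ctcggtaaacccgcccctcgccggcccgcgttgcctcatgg

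The first base of the capitals lay 10 bases before the start in Mrpl17, 135 in Mrpl10, 19 in Mrpl3, 11 in Mrps22 and 19 in Mrps12. The search covered 300 bp, from 250 before to 50 after each start, on both strands, in 69 members and in 16457 genes with a start. CGCATGCG was present in 7 members (10.1%), against 2.60% of all genes. CCGGAAGT was present in 11 members (15.9%) against 5.44%, and AAGATGGC, the letters of a YY1 motif, in 12 (17.4%) against 3.21%. At least 1 of these 3 motifs was present in 28 members (40.6%), against 10.6% of all genes. Of 57 genes for cytosolic ribosomal proteins, 33.3% held at least 1 of them. The 3 motifs were present in 3.51%, 21.1% and 8.77% of those genes, so CCGGAAGT was more frequent there than in the members. CCAATCA was present in 9 members (13.0%) against 9.43%, and TATAAA, the TATA box, in 4 (5.80%) against 13.5%. No pair of matches overlapped within a member, and a match describes letters only. The members' promoters held a median of 21 CpG dinucleotides in 300 bp against 14 over all genes, and a median GC share of 58.3% against 56.7%. For the cytosolic ribosomal protein genes the medians were 21 and 57.0%.

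The members were short genes in gene-rich places, which bears on every window used here. Their lengths ran from 825 to 121712 bp with a median of 7690 bp, against 17574 bp over all genes. The 1 Mb around a member held a median of 19 protein-coding genes, against 15. A divergent partner is a start on the other strand that points away and lies within 1000 bp. Of the 69 members with a start, 23 (33.3%) had one, against 7.79% of all genes. Mrpl46, of the central protuberance of the large subunit, and Mrps11, of the small subunit platform, started 42 bp apart and were the only pair in which both genes were members. Mrps12 started 147 bp from Sars2, the mitochondrial seryl-tRNA ligase, and Mrpl47, at the rim of the exit tunnel, 308 bp from Ndufb5, a subunit of respiratory complex I. The windows at the gene ends overlapped those of another gene for 44 of 78 members (56.4%), against 25.6% of all genes.

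The 3 lists held 3735952, 2999502 and 4474045 positions of 140 bp on days 0, 1 and 2. The summit values, the authors' scaled coverage at the centre of a position, lay on whole steps that differ between libraries. Taking 1 step as 1 unit of coverage gives depths of 1, 2.36 and 1.22 relative to day 0. By this reading day 1 had the deepest library and the fewest positions, and its fuzziness score, the authors' measure of how widely reads spread around a centre, was the highest, with a median of 54.5 against 51.1 on days 0 and 2. The part of these differences in the results for day 1 was not tested.

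Around the start sites the members showed a trough before the start and a row of maxima after it. The density of centres, weighted by summit value and divided by its mean over the outermost 200 bp on each side of a span of 1000 bp, fell lowest 35 bp before the start on day 0, 45 bp on day 1 and 105 bp on day 2. At these points it stood at 0.134, 0.161 and 0.193 of the flanks. Leaving out each chromosome in turn moved the mean from 200 bp before to 50 bp after the start between 0.374 and 0.479 on day 0. The range was 0.415 to 0.482 for day 1 and 0.435 to 0.517 for day 2. The trough was therefore deeper than that of all genes on each day, whichever chromosome was left out.

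**Figure D1:**
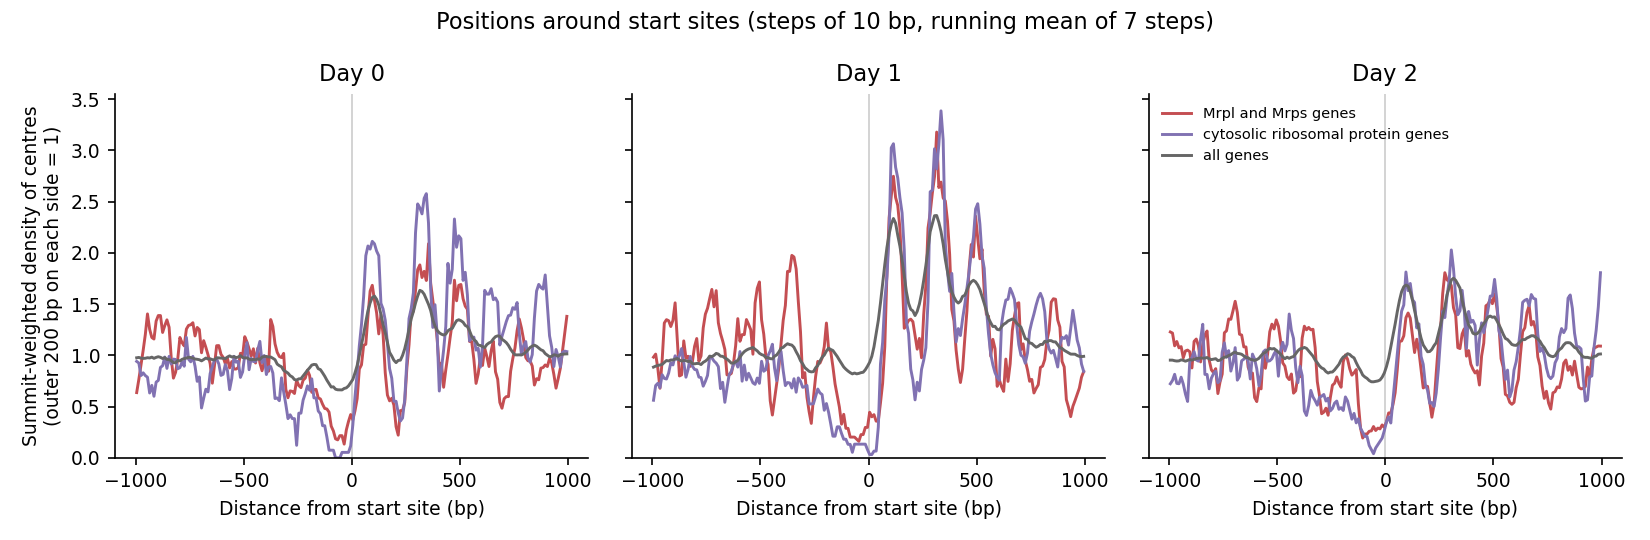
Summit-weighted density of position centres (outermost 200 bp on each side set to 1) against distance from the start site in bp, on days 0, 1 and 2, for the 69 Mrpl and Mrps genes with a start, 57 cytosolic ribosomal protein genes and 16457 genes in all. Lines are running means of 7 steps of 10 bp; the members' lines stay below that of all genes just before the start and rise to rows of maxima after it, highest on day 1.

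The first maximum after the start lay at 95 bp on day 0, 115 bp on day 1 and 105 bp on day 2, with heights of 1.68, 2.75 and 1.41. Over all genes the heights were 1.58, 2.34 and 1.69, so the members stood higher on days 0 and 1 and lower on day 2. The second maximum of the members lay at 355, 315 and 275 bp, with heights of 2.09, 3.18 and 1.81 against 1.63, 2.36 and 1.75 over all genes. The third lay at 475, 495 and 505 bp, so the maxima were near evenly spaced on day 1 only. Between the first and second maximum the members' density dropped to 0.221 on day 0, 0.976 on day 1 and 0.396 on day 2. Over all genes it was 0.929, 1.39 and 1.04 there. The lowest point of the members' curve there was thus below that of all genes on each day. Curves of 69 genes are rougher than curves of 16457, and an extreme point of a rough curve lies farther out. This holds for the maxima too. The mean density over a longer stretch after the start, which takes in these maxima, was 1.13, 1.51 and 1.04 for the members. Over all genes it was 1.24, 1.62 and 1.29, so by this mean the members stood lower on each day.

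The genes for cytosolic ribosomal proteins, which build the ribosomes of the cytoplasm, had a deeper trough on each day, with 0.351, 0.142 and 0.301 of the flanks. The distance between the 2 families was widest on day 1. Members with a divergent partner had the deeper trough. These 23 stood at 0.221, 0.375 and 0.370 of the flanks. The members without one stood at 0.535, 0.502 and 0.546, against 0.816, 0.980 and 0.920 over all genes without one. The trough was thus present in both classes and shallower in the second.

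Counted gene by gene, 44 of 69 start stretches held no centre on day 0 (63.8%, with an exact 95% interval of 51.3 to 75.01). The number was 48 for day 1 (69.6%, 57.3 to 80.1) and 40 for day 2 (58.0%, 45.5 to 69.8). Over all genes the shares were 53.3%, 53.2% and 43.1%. The members' interval lay above the share of all genes on days 1 and 2 and held it on day 0. Of the 46 members without a divergent partner, 56.5% (41.1 to 71.1), 67.4% (51.98 to 80.5) and 50% (34.9 to 65.1) had no centre there, against 52.7%, 52.5% and 42.7% of all genes without one. By this count the excess was not resolved in these 46, since each interval held the share of all genes. Genes with a divergent partner stood at 60.2%, 60.8% and 48.0% over all genes. On all days together 30 members (43.5%, 31.6 to 56.0) lacked a centre there, against 26.6% of all genes. Without a divergent partner it was 17 of 46 (36.96%, 23.2 to 52.5) against 25.9%, again with the share of all genes inside the interval. Some genes have few positions in their whole surroundings. Among genes whose ends held 3 or more positions in every library, 25 of 62 members (40.3%, 28.0 to 53.6) and 17.8% of all genes had a start without a centre throughout. At starts with at least 16 CpG dinucleotides, the members' lower quartile, members lacked a centre in 65.4%, 69.2% and 55.8%, against 52.5%, 46.4% and 38.5% of all such genes. A start without a listed position is one where no position passed the caller, and depth limits what was listed.

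**Figure D2:**
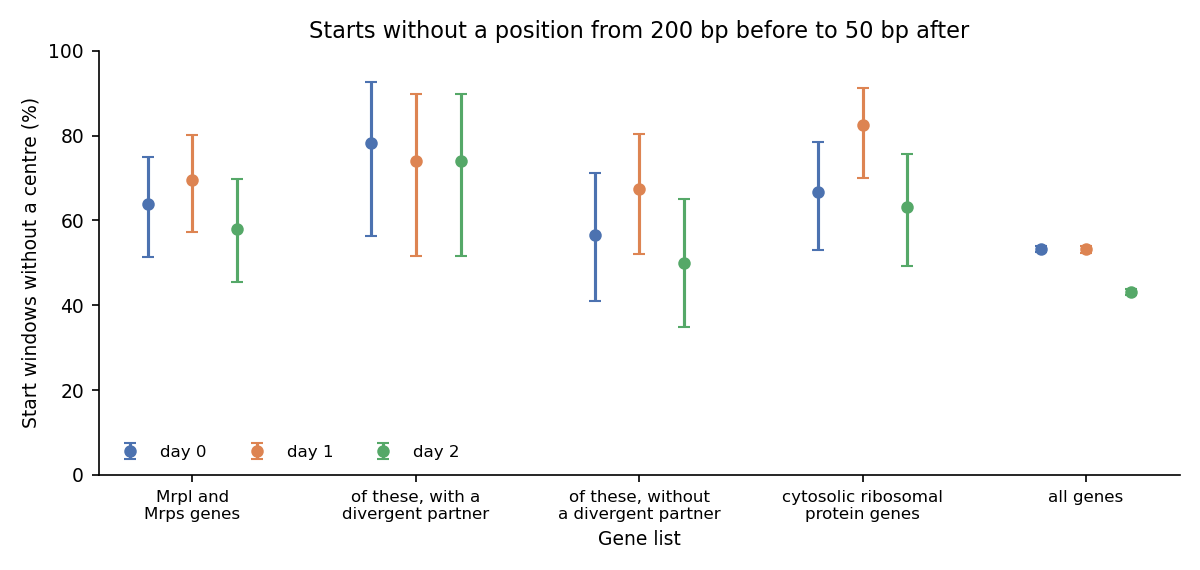
Percent of start windows (200 bp before to 50 bp after the start) without a position centre, for each list and day. Points are shares and bars exact Clopper-Pearson 95% intervals; members with a divergent partner (78.3%, 73.9% and 73.9%) lie above members without one (56.5%, 67.4% and 50%), with overlapping bars.

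Among the large subunit genes with such starts, Mrpl3 had a long free stretch on the side before the start. Its nearest centres lay 2805 bp before and 83 bp after the start on day 0, 2177 and 93 bp on day 1, and 502 and 95 bp on day 2. The first position inside the gene thus lay at nearly the same place on each day, while the side before the start differed. Mrpl17, whose NRF1 letters are printed above, had a free stretch of 765 bp on day 0, 930 bp on day 1 and 642 bp on day 2. Mrpl44, a protein with a fold like that of RNase III, had 1363, 1815 and 462 bp. Mrpl16 had 1210, 878 and 472 bp, and Mrpl11, at the base of the stalk, 1145, 1290 and 725 bp. In these 5 genes the stretch was shortest on day 2, but at Mrpl18 (940, 540 and 573 bp), Mrpl40 (445, 460 and 890 bp) and Mrpl49 (400, 590 and 720 bp) it was not. Of the 20 large subunit genes with such starts, 9 had the shortest stretch on day 2, 6 on day 1 and 5 on day 0. For the 10 small subunit genes with such starts these numbers were 2, 3 and 5. Over all 30 members they were 11, 9 and 10, so no day stood out.

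Among the small subunit genes, the stretch at Mrps12 was 1100 bp on day 0, 855 bp on day 1 and 1175 bp on day 2, the longest on day 2 of the 30. The stretch at Mrps22 was 1030, 735 and 956 bp. At Mrps18c, 1 of 3 related genes for proteins like bacterial S18, it was 500, 640 and 735 bp, and at Mrps16 1305, 455 and 640 bp. The shared start region of Mrpl46 and Mrps11 was free over 507 bp on day 0, 2010 bp on day 1 and 857 bp on day 2. Mrpl32, a protein matured inside mitochondria by an AAA protease, had 3815 bp on day 0 but 450 and 485 bp on days 1 and 2. No day had the longest stretch at all of these genes.

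**Figure D3:**
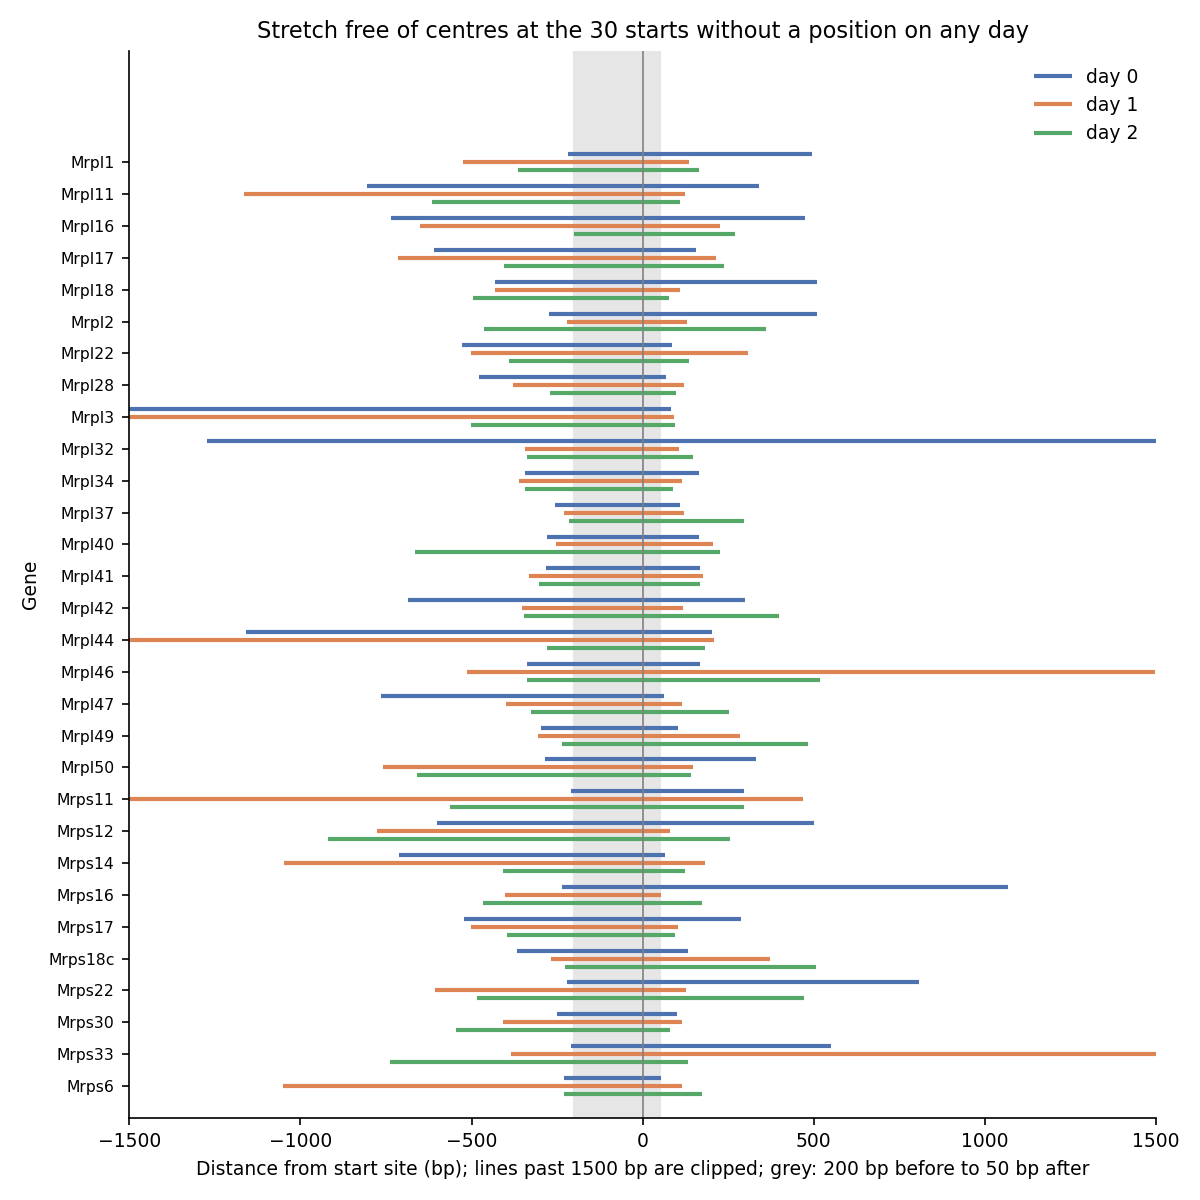
Stretch between the nearest centres before and after the start, in bp from the start, for the 30 members without a centre in the grey stretch on any day (1 line for each day, clipped at the edges). The stretches differ in length between days at most genes, and those of Mrpl3, Mrpl44, Mrpl32, Mrpl46, Mrps11 and Mrps33 pass the edge or come near it on at least 1 day.

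At the other end, 11 of 69 members (15.9%) had a centre in the start stretch on all days, against 26.9% of all genes. Mrpl48, of the central protuberance, held 3, 1 and 2 centres there on days 0, 1 and 2. Mrps10, of the head of the small subunit, held 2, 2 and 1, and Mrps2 held 1 on each day. Others differed between days. Mrpl12, the stalk protein that contacts translation factors, had a centre 11 bp before the start on day 0, none within 576 bp before it on day 1, and one 158 bp before it on day 2. Mrpl58, a peptidyl-tRNA hydrolase that rescues stalled ribosomes, and Mrps5, of the mRNA entry side, both lacked a centre in the stretch on day 0 and held 1 on day 1. Over the 69 starts, the distance between the nearest centres had a median of 500, 512 and 470 bp, against 495, 470 and 360 bp over all genes. It passed 300 bp at 78.3%, 84.1% and 66.7% of members, against 68.0%, 64.9% and 58.2% of all genes.

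Relative occupancy within 500 bp of either gene end, where 1 is the autosome mean of the library, had a median over the 78 members of 2.34, 3.36 and 2.18 on days 0, 1 and 2. Over all genes it was 1.91, 2.55 and 1.87. Members above the median of all genes numbered 57 on day 0, 52 on day 1 and 47 on day 2 (73.1%, 66.7% and 60.3%). Genes between 4000 and 12550 bp long, the middle range of the members, had medians of 2.48, 3.19 and 2.23, close to those of the members. By the median, the members' level therefore did not stand out among genes of like length. The share above the median of all genes was 62.15%, 59.85% and 58.91% in those genes, lower than in the members on each day. Cytosolic ribosomal protein genes stood higher, with 3.06, 4.63 and 2.76. The large subunit genes (2.35, 3.49 and 2.19) and the small subunit genes (2.29, 3.11 and 2.18) lay near each other.

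**Figure D4:**
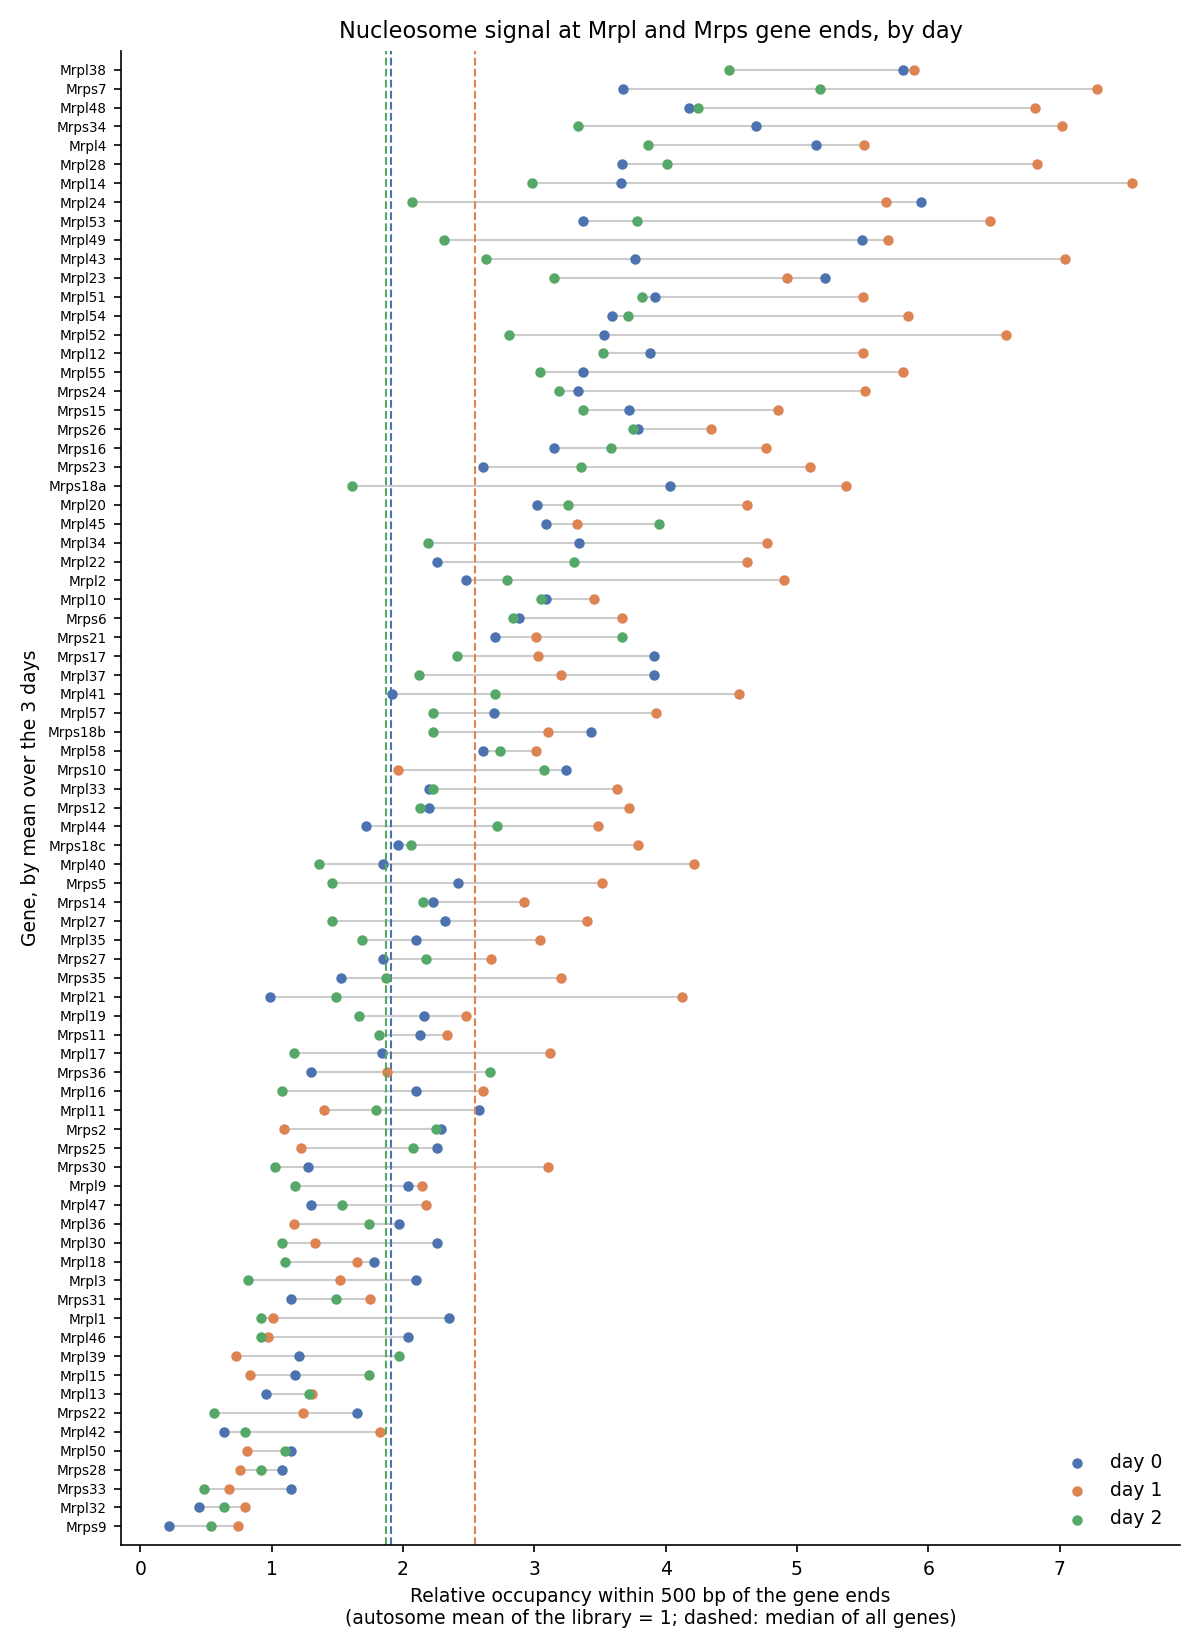
Relative occupancy within 500 bp of the gene ends (autosome mean of the library = 1) of the 78 members on days 0, 1 and 2, 1 point for each library, ordered by the mean over days. Dashed lines are the medians of all genes (1.91, 2.55 and 1.87); the members run from below 1 at Mrps9, Mrpl32 and Mrps33 on most days to above 3 at Mrpl38, Mrps7 and Mrpl48 on each day.

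The highest mean levels were at Mrpl38 and Mrpl48, of the central protuberance, and at Mrps7, of the small subunit head. Mrpl38 (chr11:116131817-116138868) had 5.81 on day 0, 5.89 on day 1 and 4.48 on day 2. Mrps7 (chr11:115604140-115608036) had 3.68, 7.28 and 5.17, and Mrpl48 (chr7:100545779-100608301) had 4.18, 6.81 and 4.25. Mrps7 and Mrpl48 were highest on day 1, and Mrpl38 was near the same level on days 0 and 1. The lowest were Mrps9 (chr1:42851233-42905683), of the small subunit head, with 0.223, 0.744 and 0.538, Mrpl32 (chr13:14610301-14613037) with 0.445, 0.797 and 0.641, and Mrps33 (chr6:39801804-39810936), also of the head, with 1.15, 0.673 and 0.487. These low values rest on 1 to 3 positions for each gene and day, so their order is not resolved. The range over the 8 genes of the small subunit head, from 0.223 to 3.68 on day 0, covered most of the range of all members.

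Among the roles within the ribosome, the 3 stalk genes Mrpl10, Mrpl11 and Mrpl12 had medians of 3.09, 3.45 and 3.05 on days 0, 1 and 2. The 5 genes of the exit tunnel rim had 3.09, 4.62 and 3.15, the 6 of the central protuberance 2.18, 3.81 and 1.41, and the 8 of the small subunit head 1.88, 2.44 and 2.01. The middle 50% of all members lay between 1.84 and 3.51 on day 0, 1.84 and 4.92 on day 1, and 1.47 and 3.13 on day 2. These medians of 3 to 8 genes lay within that spread on days 0 and 1, while on day 2 the exit tunnel rim lay just above it and the central protuberance below it. Over whole gene spans the members had medians of 3.001, 3.32 and 2.49, against 1.92, 2.09 and 1.74 over all genes and 2.72, 3.34 and 2.33 over genes of their middle lengths.

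The side of the start and the side of the gene's other end did not differ as they did over all genes. The start end is here the end of the gene span on the side of the start. The start site used above lay more than 500 bp inside the span at some members, by 10282 bp at Mrps23. At those members this window is not the one around that start site. On day 1 the members' medians were 3.50 within 500 bp of the start end and 3.65 at the other end, against 3.01 and 1.59 over all genes. On day 0 both were 2.48 (1.97 and 1.72 over all genes), and on day 2 they were 2.26 and 2.05 (2.11 and 1.54). Genes of the members' middle lengths lay between, with 3.22 and 2.66 on day 1. The 29 members whose windows touch no other gene had 3.01 and 2.20 on day 1, nearer to the latter. On day 0 these 29 members had 2.35 at both ends, and on day 2 they had 2.20 and 2.05, so their far end stood below that of all members on day 1, little below it on day 0 and level with it on day 2.

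Between days most genes took the same course at their ends. Over the 13996 genes that held 3 or more positions in every library, the log2 change had a median of 0.45 in the first step, -0.56 in the second and -0.12 over both. The 69 members that met the minimum had medians of 0.51, -0.59 and -0.14. The sequence of a higher day 1 and a lower day 2 was present in 51 of 69 members (73.9%) and in 70.4% of all genes. Members lower in both steps numbered 10, members higher in both 3 (Mrpl45, Mrps21 and Mrps36), and members lower and then higher 5. The members' medians thus differed from those of all genes by 0.07, -0.04 and -0.03. Dividing each library by the median of its gene-end windows takes this shift out, and it then left 1 member 2 times higher (5.22% of all genes) and 8 lower (4.97% of all genes) from day 0 to 1, in place of 8 and 3.

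By the size rule of 2 times, 8 members were higher on day 1 than on day 0 (16.2% of all measured genes were) and 3 were lower (1.31% of all). From day 1 to 2, 1 member was higher (0.593% of all) and 15 were lower (19.7% of all). From day 0 to 2, 1 was higher (4.24% of all) and 7 were lower (6.54% of all). As shares of the 69 members, these were 11.6% and 4.35%, 1.45% and 21.7%, and 1.45% and 10.1%, near the background in most cases and resting on few genes where they were not. For no member did the 95% counting interval of the ratio of position numbers, scaled to the library totals, exclude 1 in any step. Among all genes that was so for 0.243%, 0.586% and 0.0929%, so the change at a single gene was not resolved at this number of positions.

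**Figure D5:**
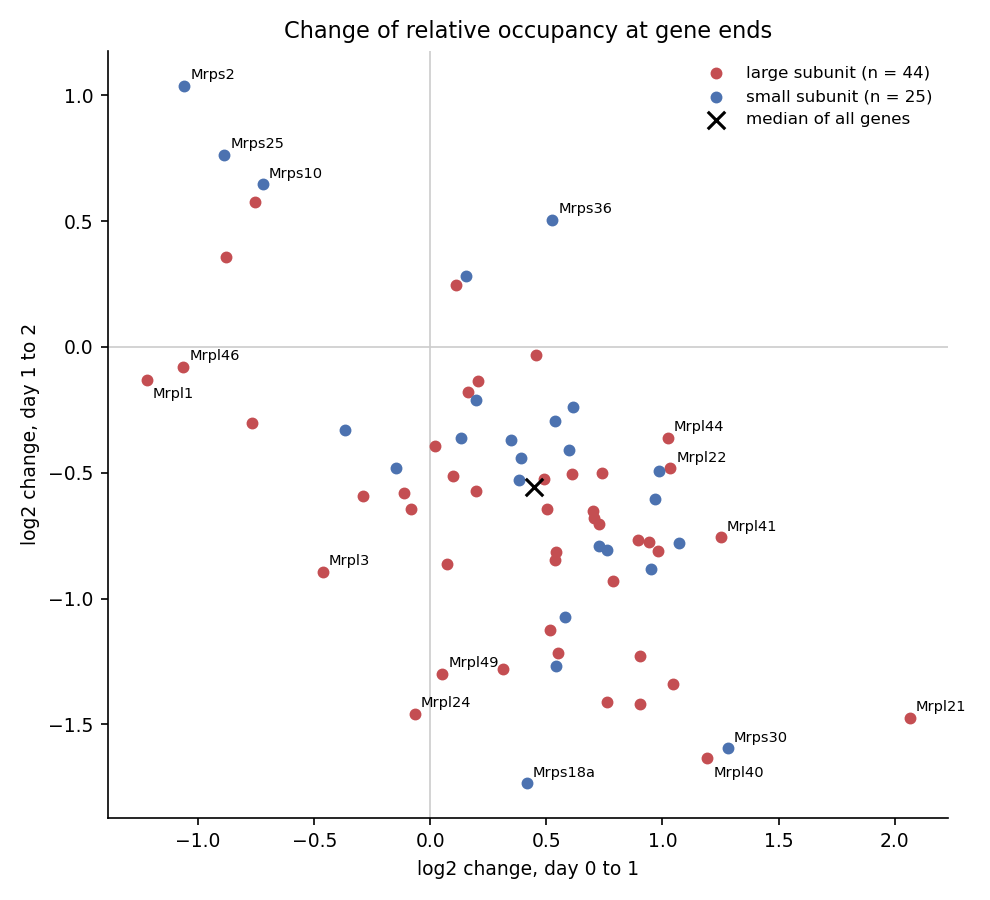
Log2 change of relative occupancy at the gene ends from day 0 to 1 (horizontal) against day 1 to 2 (vertical), 1 point for each of the 69 measured members, 44 named for the large and 25 for the small subunit. The cross is the median of all genes (0.45 and -0.56). Most members lie in the lower right field, and both axes use the value of day 1, so a slope between them is built in.

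The 1 member at least 2 times higher on day 2 than on day 0 was Mrps36 (chr13:100735940-100744659), named for the small subunit and by later work placed in the 2-oxoglutarate dehydrogenase complex. Its relative occupancy was 1.30, 1.88 and 2.67 on days 0, 1 and 2, from 5, 5 and 8 positions, a log2 change of 1.03 from day 0 to 2. It was higher on each later day. Over its whole span the order was the opposite, with 2.83, 2.74 and 2.28. The next largest increases were below 2 times, at Mrpl44 (0.66), Mrpl21 (0.59), Mrpl22 (0.55) and Mrpl41 (0.50). All of these 4 were highest on day 1.

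Mrpl21 (chr19:3282997-3292837), a large subunit protein, had the largest step of all members. It stood at 0.986, 4.13 and 1.49 on days 0, 1 and 2, from 3, 9 and 6 positions, a log2 change of 2.06 and then -1.47. Over its span it stood at 1.19, 4.50 and 2.43 from 20, 48 and 39 positions, so day 1 was the highest in both regions. Mrps30 (chr13:118380110-118387252), which lies in the large subunit despite its name, had 1.28, 3.11 and 1.03, and Mrpl40 (chr16:18872018-18876637), of the central protuberance, 1.85, 4.21 and 1.36. At Mrpl41 (chr2:24972470-24975098) the levels were 1.91, 4.56 and 2.70. These 4 genes were highest on day 1, and Mrpl41 stayed above the median of all genes on day 2.

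Of the 7 members 2 times lower from day 0 to 2, 6 were Mrpl genes, which make up 44 of the 69 measured. Mrpl24 (chr3:87918131-87923450), at the exit tunnel, stood at 5.95 on day 0, 5.68 on day 1 and 2.07 on day 2, from 12, 11 and 7 positions, a log2 change of -1.52 from day 0 to 2. Mrpl49 (chr19:6053630-6057755) followed the same course, with 5.50, 5.70 and 2.32, and Mrps18a (chr17:46111004-46128908), a protein of the S18 family that sits in the large subunit, had 4.03, 5.37 and 1.62. All 3 were lower on day 2 than on days 0 and 1, though Mrpl24 and Mrpl49 were still above the median of all genes. Over its span Mrpl24 had 3.78, 2.93 and 3.20, so day 2 was not the lowest there, while Mrpl49 (4.15, 6.22 and 2.89) and Mrps18a (3.998, 4.07 and 2.70) were lowest on day 2 over the span too.

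In another set of genes the lower level was already present on day 1. Mrpl1 (chr5:96209498-96266727), of the L1 stalk, had 2.35 on day 0, 1.01 on day 1 and 0.923 on day 2. Mrpl46 (chr7:78775341-78783089) had 2.04, 0.974 and 0.923, while the windows of Mrps11, with which it shares the start region, had 2.13, 2.34 and 1.82. Mrpl3 (chr9:105053268-105077466) had 2.10, 1.52 and 0.820, lower on each later day. The 3 genes held 3 to 7 positions on each day, fewer than Mrpl24. Over the whole span Mrpl1 went the other way, with 0.829, 1.21 and 1.38 from 81, 96 and 141 positions, whereas Mrpl46 (2.30, 1.78 and 1.06) and Mrpl3 (1.22, 0.942 and 0.768) were lower there too.

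A few genes were lowest on day 1. Mrps2 (chr2:28465951-28471177) stood at 2.29 on day 0, 1.10 on day 1 and 2.26 on day 2, and was the 1 member at least 2 times higher on day 2 than on day 1. Mrps25 had 2.26, 1.22 and 2.08, and Mrps10 had 3.24, 1.97 and 3.08. Each stood on day 2 near its level of day 0. The values of days 0, 1 and 2 rest on 6, 3 and 8 positions at Mrps2 and at Mrps25, and on 7, 5 and 10 at Mrps10. By symbol, the median log2 change from day 0 to 2 was -0.30 over 44 Mrpl genes, of which 6 were 2 times lower and 0 higher. It was -0.05 over 25 Mrps genes, of which 1 was higher (Mrps36) and 1 lower (Mrps18a). The symbol is not the place of the protein, since Mrps18a and Mrps30 lie in the large subunit and Mrps36 was placed in another complex. All genes stood at -0.12, between the 2 medians, with 4.24% higher and 6.54% lower.

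Of the 12 genes kept for their roles, 6 took the common course without a change of 2 times. Mrpl12 had 3.88, 5.50 and 3.52 on days 0, 1 and 2, Mrpl10 had 3.09, 3.45 and 3.05, and Mrpl58 had 2.61, 3.01 and 2.74. Mrps12 stood at 2.20, 3.72 and 2.13, Mrps16 at 3.15, 4.76 and 3.59, and Mrps18c at 1.96, 3.79 and 2.06. All 6 were highest on day 1. Mrpl44, with 1.72, 3.49 and 2.72, was also highest on day 1 but 2 times higher than on day 0. Mrpl11 departed from this order with 2.58, 1.399 and 1.79, lowest on day 1. Mrps5, with 2.42, 3.52 and 1.46, and Mrps34, a small subunit protein with no bacterial counterpart, with 4.69, 7.01 and 3.34, were 2 times lower on day 2 than on day 1. Mrps22, with 1.65, 1.24 and 0.564 from 6, 3 and 2 positions, was lower on each later day, as Mrpl3 was.

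Over whole gene spans, where 77 members met the minimum, the median changes were smaller than at the gene ends in the single steps, but not from day 0 to 2. Medians were 0.37, -0.41 and -0.15, against 0.20, -0.33 and -0.15 over 17898 genes. Genes of the members' middle lengths had 0.34, -0.55 and -0.22, so the members' first step was near that of genes of like length. Of those genes, 4.36% were 2 times higher from day 0 to 1 and 6.86% lower from day 1 to 2. From day 0 to 1, 5 members were 2 times higher (3.45% of all) and 0 lower (5.68% of all). From day 1 to 2, 0 were higher (7.58% of all) and 6 lower (4.05% of all), and from day 0 to 2, 2 were higher (5.37% of all) and 2 lower (2.37% of all). The higher ones from day 0 to 2 were Mrpl15, with 0.817, 1.45 and 1.84 on days 0, 1 and 2, and Mrpl21. The lower ones were Mrpl46 and Mrpl34, whose 828 bp held only 4, 3 and 3 positions. The counts at spans of short genes are thus as thin as those at gene ends.

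The positions themselves resembled those of other genes. The members' end windows held 536, 535 and 530 positions on days 0, 1 and 2, against 105968, 105538 and 116825 in the windows of all genes. Their median summit value was 8.39, 8.74 and 7.51, against 7.62, 7.77 and 7.06 over the windows of all genes. Their median fuzziness score was 51.4, 54.7 and 51.8, against 52.1, 55.2 and 52.3. The members' summits were thus somewhat higher and their spread somewhat lower on each day, by less than the difference between day 1 and the other days in fuzziness.

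Few positions recurred at the same place. Of the members' positions of day 0, 26.5% (95% interval 22.8 to 30.4) had a centre of day 1 within 20 bp and 22.2% (18.8 to 26.0) one of day 2. Of those of day 1, 21.7% (18.3 to 25.4) had one of day 2. After a shift of 1000 bp the members' shares were 18.9%, 18.9% and 17.5%. Over all genes the shares were 21.9%, 22.5% and 23.6%, and after the shift 15.5%, 16.1% and 16.5%. The members' higher share for days 0 and 1 thus went with a higher share after the shift, and in the pairs with day 2 they stood less far above their shifted share than all genes did. The listed centres at these genes were therefore mostly not shared between the libraries at 20 bp. With 1 library for each day, how often a centre recurs within the same day could not be measured. A start stretch without a centre was seen in all 3 libraries at 30 of 69 starts (43.5%), against 26.6% of all genes.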

How the data were processed

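Chromatin of 3 samples, 1 for each culture day, was digested with micrococcal nuclease and sequenced. The authors deposited 1 list of nucleosome positions for each library. The submitters' processing notes name Bowtie2, bedtools and the build mm10. Their versions and the position caller were not given in the labels or headers. The authors scaled the coverage signal that the summit value reports, as its header names it. The fuzziness score and the p-value columns were deposited by the authors, and the p-values were not used. The other deposited columns give mm10 coordinates.

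Gene spans came from the RefSeq gene table of GRCm38.p6, which shares the coordinates of mm10. Start sites and strands came from the RefSeq promoter table of the same assembly, taking for each gene the outermost entry within its span, and 105 genes lying below 3 Mb were left out. Relative occupancy is the sum of summit values per bp in a region, divided by the same quantity over chromosomes 1 to 19 of that library. Changes were computed for genes with at least 3 positions in the region on each day, and a change of 2 times was used as a size rule. With 1 library for each day no test was made, and shares carry exact Clopper-Pearson 95% intervals, which cover counting error only. Lists were made separately for each library, so numbers of positions also depend on depth and on the caller's threshold. The computation was checked on simulated data.

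Genes were named by a rule on size. It took the 5 largest increases and decreases from day 0 to 2 at the gene ends, the 3 largest of each step, the 3 highest and lowest levels, the 3 largest changes over the gene span, the first 5 starts without a position, and 12 genes with a known role. The 78 members and the lists were chosen with earlier results of these data known. The role groups, the motif letters, the definition of a divergent partner and 5 of the alternatives were set after the files had been seen. Python 3.11.15 was used with numpy 2.4.6, pandas 2.3.3, scipy 1.17.1 and matplotlib 3.10.9.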

Additional observations from a re-analysis of the deposited data

How the results depend on the processing

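No paired analysis was possible because there is 1 library for each day. Of the summary values recomputed under the alternatives, 91 stayed within their counting interval, within the error over chromosomes or within 1.5 times of a count, and 72 moved. Of 145 values of named genes past 2 times, 41 dropped below that size under an alternative and 0 changed sign. At 1000 bp on each side Mrpl24 (-1.15) and Mrps18a (-1.16) kept a 2-fold lower level from day 0 to 2, while Mrps36 stood at 0.39. For every other move the cause was not tested, apart from alternatives that leave fewer genes.

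At the gene ends the members' median minus that of all genes was 0.07, -0.04 and -0.03. These values are for the steps from day 0 to 1, 1 to 2 and 0 to 2. The difference changed sign in 7 of 24 values recomputed over the alternatives and steps. It was 0.19 from day 0 to 1 with 250 bp on each side, 0.081 from day 1 to 2 and 0.15 from day 0 to 2 with summits of at least 10, and -0.15 and 0.05 in the single steps without shared windows. Members above the all-gene median on day 0 made up 58.97% counting each position once and 60.26% with summits of at least 10.

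Numbers of members past 2 times follow, with the share of all genes under the same setting in brackets. With 250 bp on each side, where 30 members were measured, 2 were higher (16.8%) and 0 lower (0.665%) from day 0 to 1, 0 higher (0.130%) and 7 lower (24.6%) from day 1 to 2, and 0 higher (2.18%) and 2 lower (7.36%) from day 0 to 2. With 1000 bp (76 measured), 5 were higher (10.4%) and 0 lower (2.88%) from day 0 to 1, 5 lower (10.6%) from day 1 to 2 and 2 lower (4.70%) from day 0 to 2. Counting each position once (69 measured), 4 were higher (8.22%) and 0 lower (0.836%) from day 0 to 1, 0 higher (0.307%) from day 1 to 2 and 0 higher (1.42%) from day 0 to 2. With summits of at least 10 (16 measured), 4 were higher (30.2%) and 0 lower (0.423%) from day 0 to 1, 0 higher (1.96%) and 2 lower (14.9%) from day 1 to 2, and 0 lower (1.38%) from day 0 to 2. Without members with shared windows (28 measured; the shares are of all genes, shared windows included), 3 were higher (16.2%) and 1 lower (1.31%) from day 0 to 1, 0 higher (0.593%) and 4 lower (19.7%) from day 1 to 2, and 3 lower (6.54%) from day 0 to 2. With at least 1 position on each day (78 measured), 3 were higher (5.24%) from day 1 to 2 and 2 (10.1%) from day 0 to 2. With at least 5 (52 measured), 0 were lower (0.168%) from day 0 to 1, 0 higher (0.00987%) from day 1 to 2 and 3 lower (4.31%) from day 0 to 2. Scaled to the median of the gene-end windows (69 measured), 1 was higher (5.22%) and 8 lower (4.97%) from day 0 to 1, and 4 higher (3.26%) and 5 lower (4.96%) from day 1 to 2.

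Over the gene span, counting each position once left 3 higher (2.07%) from day 0 to 1, and 0 higher (4.25%) and 0 lower (1.45%) from day 0 to 2. Summits of at least 10 gave 3 lower (12.0%) from day 0 to 1, and 1 higher (12.5%) and 0 lower (11.1%) from day 0 to 2. Adding 500 bp on each side gave 3 higher (3.14%) from day 0 to 1, and 1 higher (5.51%) and 1 lower (2.39%) from day 0 to 2.

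Shared positions made up 15.1%, 13.6% and 12.9% within 10 bp (day 0 with 1, day 0 with 2, day 1 with 2), 45.7%, 40.9% and 42.1% within 40 bp, and 20.3%, 11.6% and 14.7% for summits of at least 10. Starts without a centre from 100 bp before to 50 bp after made up 84.1%, 87.0% and 79.7% on days 0, 1 and 2 and 69.6% on all days, against 69.4%, 68.0%, 62.0% and 41.6% of all genes. With a summit value of 10 or more they made up 94.2%, 89.9%, 88.4% and 84.1%, against 87.2%, 83.9%, 86.6% and 71.1%. The start trough was 0.535 on day 0 without members with a divergent partner, and 0.247, 0.616 and 0.768 with a summit value of 10 or more, against 0.806, 1.26 and 0.997 over all genes, so it stayed below that of all genes. Over gene spans the median summit value was 7.45 on day 1 and 6.88 on day 2, and the fuzziness score 52.2 on day 0 and 52.5 on day 2, there above the 51.5 and 51.6 of all spans. The alternatives that use divergent partners, the profile counted once or at a higher summit value, and genes with positions at their ends were chosen after seeing the data.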

Other observations

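Other genes of mitochondrial translation were measured like the members, as a list of 52 that holds ribosome proteins with other symbols, translation factors, assembly and RNA proteins and the mitochondrial tRNA ligases. Their relative occupancy at the gene ends had a median of 2.53 on day 0, 3.19 on day 1 and 2.22 on day 2, close to that of the Mrpl and Mrps genes. Over the 44 that met the minimum of positions the log2 change had a median of 0.47 in the first step, -0.61 in the second and -0.18 over both, near the values of all genes.

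Polrmt, the RNA polymerase of mitochondria, had 3.59 on day 0, 3.71 on day 1 and 1.12 on day 2, from 9, 8 and 5 positions. Gfm1, an elongation factor, went the other way with 1.02, 1.68 and 2.23, from 4, 4 and 7 positions. These 2 genes were chosen after their values were seen. Tufm, the elongation factor that brings tRNA to the ribosome, followed the common course with 3.41, 5.82 and 3.04.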
